A study of Mus musculus with 12 samples.

Results

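Liver RNA of pair-fed mice labelled as liver-specific Sirt6 knockouts was set against that of pair-fed wild type mice, with 3 mice on each side. These 6 libraries were chosen by their labels from the 12 of the series, and every gene in the table was used. All 6 mice were female C57BL/6 animals aged 3 months. An isocaloric control diet was pair-fed over 10 days, and 1 binge dose of maltose dextrin at 5 g/kg followed. The other 6 mice, 3 labelled knockout and 3 wild type of the same strain, sex and age, had the 5% Lieber-DeCarli diet over the same time and 1 binge dose of ethanol at 5 g/kg. Neither the promoter driving Cre nor the deleted exons are stated in the labels used here, and the RNA came from snap-frozen liver with no sorting of cells stated. In such samples, fewer cells of a type and less RNA per cell cannot be told apart.

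SIRT6 is a chromatin-bound, NAD-dependent deacylase that removes acyl groups from histones. In liver it is known as a repressor of genes for glycolysis and for triglyceride and cholesterol synthesis, and it is counted among the factors that protect genome stability. Many liver genes also differ between male and female mice, because hepatocytes read the sex-specific pattern of growth hormone release through the transcription factors STAT5B, BCL6 and CUX2. Both sets of genes are described below.

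The 6 libraries held between 17940776 and 18279809 counts over 13097 genes, and 12625 genes had enough counts to be tested. Alb, the main plasma protein of hepatocytes, took 11 to 12.7% of the counts. On the first principal component, with 47.6% of the variance, the 3 labelled knockout libraries lay between -24.9 and -17.8 and the 3 wild type libraries between 19.3 and 23.7. The second, with 15.4%, set labelled knockout mouse 1 apart at 23.3, where the other 5 libraries lay between -14.0 and 5.97. Levels are TMM-normalised CPM (counts scaled to library size), and fold changes are log2 values, labelled knockout over wild type, ± their standard error with 3 mice per group. Genes were called where edgeR's quasi-likelihood test gave an adjusted p (Benjamini-Hochberg, over all genes tested) below 0.05.

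Sirt6 itself (chr10:81621786-81627608, mm10) was not detectably lower. It had 2.89, 2.49 and 2.62 CPM in the mice labelled knockout, against 2.79, 2.73 and 3.8 CPM in wild type mice. The groups overlapped, and wild type mouse 3 was the highest of the 6. The log2 fold change was -0.22 ± 0.21 (adjusted p = 0.620). Counts per gene do not show the loss of single exons, so the mice are named by their label and every direction below rests on it.

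The genotype label went with 481 called genes, 3.81% of those tested. Of these, 266 were higher in the mice labelled knockout (2.11% of genes tested) and 215 were lower (1.7%). Counts of called members in the gene lists below are to be read beside the 3.81%. At least 2-fold changes were found for 101 higher and 49 lower genes, and at least 8-fold changes for 21 higher and 3 lower genes. The median log2 fold change was 0.78 among the called higher genes and -0.55 among the called lower ones, beside -0.00 over all genes tested. In all 481 called genes the 3 values of one group lay outside the range of the other, which was also so for 24.8% of all genes tested. The count of calls was 200 without labelled knockout mouse 2, 247 without labelled knockout mouse 3, 278 without wild type mouse 1 and 271 without wild type mouse 2. With the spread estimated over all 12 libraries of the series it was 114, of which 92 were higher and 22 lower, and 101 of these were among the 481.

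**Figure D1:**
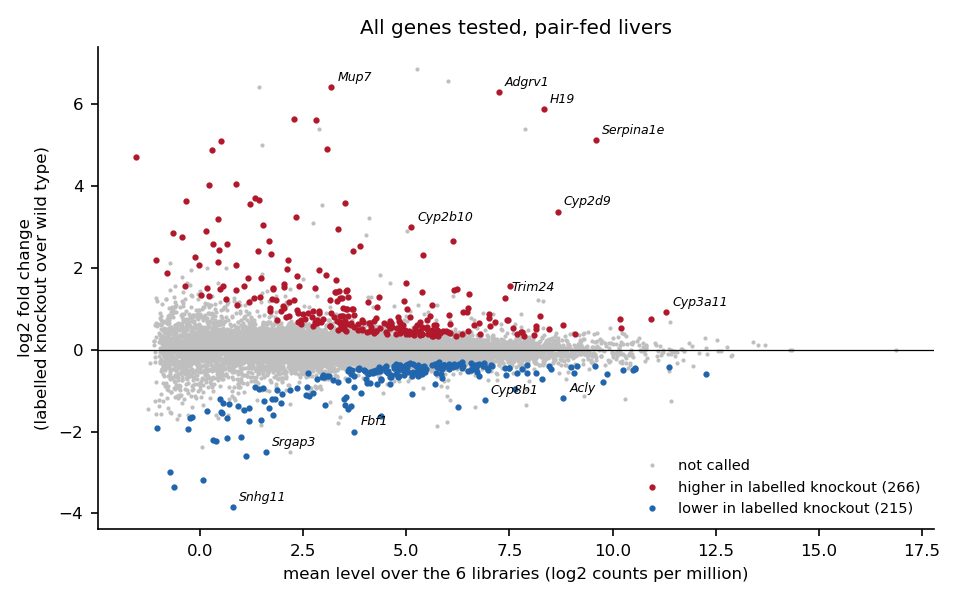
Each point is 1 of the 12625 genes tested, with its mean level over the 6 libraries on the x axis (log2 CPM) and its log2 fold change, labelled knockout over wild type, on the y axis. Coloured points are the 266 genes called higher and the 215 called lower. Adgrv1 stands at 6.30, H19 at 5.87 and Serpina1e at 5.11, and Snhg11, a gene of low level, at -3.85.

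The smallest adjusted p belonged to Adgrv1 (chr13:81095068-81633144), a very large adhesion G protein-coupled receptor known from hair cells and photoreceptors. It had 298, 304 and 292 CPM in the mice labelled knockout, against 2.96, 3.84 and 4.53 CPM in wild type mice. The groups lay far apart, with little spread in the mice labelled knockout. The mean was 78.8-fold higher (6.30 ± 0.14 on the log2 scale, adjusted p = 1.75e-09), and the call held under all 14 alternatives tried. Grid1, a delta-type glutamate receptor subunit, had 17.3, 17.7 and 18.6 CPM in the mice labelled knockout, against 2.19, 1.89 and 2.80 CPM in wild type mice (2.96 ± 0.15, adjusted p = 4.30e-06). Apba2, an adaptor of synaptic vesicle release, had 2.44, 3.35 and 2.45 CPM in the mice labelled knockout, where each wild type library held at most 0.111 CPM (5.09 ± 0.41, adjusted p = 0.000136). Unc13b, a vesicle priming factor, averaged 25.0 ± 4.94 CPM in the mice labelled knockout and 4.33 ± 0.621 CPM in wild type mice (SD, n = 3 each). In none of these genes did the groups overlap. The calcium-stimulated adenylyl cyclase gene Adcy1 was at 9.83, 12.9 and 26.2 CPM in the mice labelled knockout, against 0.438, 0.668 and 0.503 CPM in wild type mice. Labelled knockout mouse 3 was the highest, and the log2 fold change was 4.91 ± 0.54 (adjusted p = 0.00926, with 0.057 and 0.069 without wild type mouse 1 or 2 and 0.0618 with limma-voom).

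**Figure D2:**
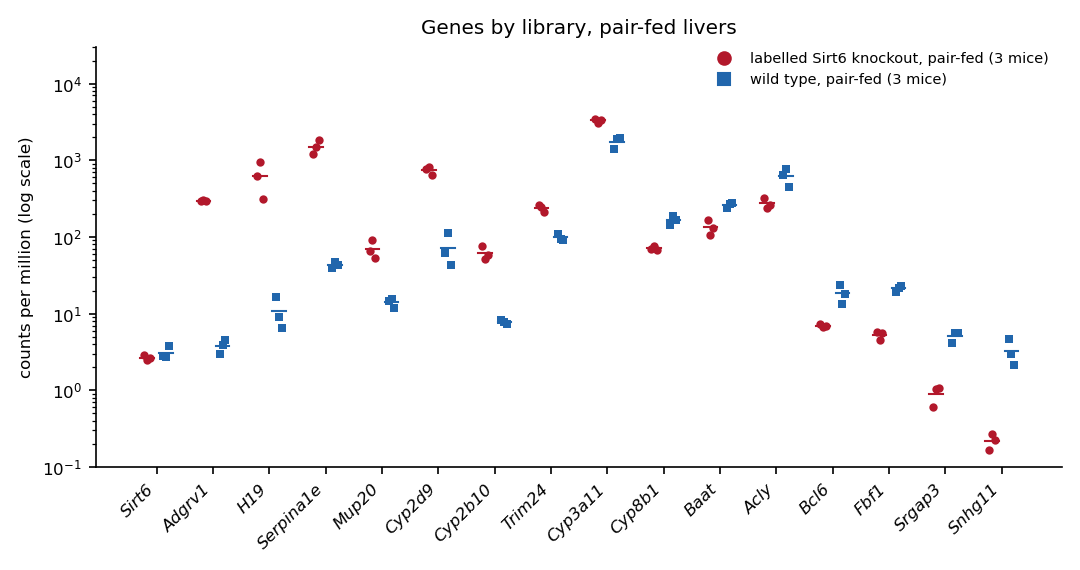
Points are the CPM of 16 genes in each of the 6 pair-fed libraries on a log axis, with labelled knockout mice as circles and wild type mice as squares to their right, and bars mark the means. Sirt6 overlaps between the groups, and the other 15 genes do not, from Adgrv1 (298 against 3.78 CPM on average) to Snhg11 (0.220 against 3.26 CPM).

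H19 (chr7:142575530-142578146), a maternally expressed imprinted RNA that is abundant in fetal liver and silenced after birth, was among the largest rises. Its levels were 621, 960 and 312 CPM in the mice labelled knockout, against 16.7, 9.14 and 6.49 CPM in wild type mice. Values in the mice labelled knockout spread widely but stayed clear of the wild type range. The log2 fold change was 5.87 ± 0.67 (adjusted p = 0.0231), and without 1 mouse at a time the call was lost in 5 of 6 cases, with adjusted p up to 0.116. Its paternally expressed neighbour Igf2, a fetal growth factor named here after its values were seen, had 46.0, 156 and 25.5 CPM in the mice labelled knockout, against 0.603, 0.724 and 0.615 CPM in wild type mice. The groups did not overlap, but labelled knockout mouse 2 stood well above the other 2, and the gene was not called (6.86 ± 1.20, adjusted p = 0.0671). Meg3 and Rian, maternally expressed long noncoding RNAs of the Dlk1-Dio3 region on chromosome 12, rose as well. Meg3 was at 10.2, 7.95 and 17 CPM in the mice labelled knockout, against 3.18, 2.62 and 3.24 CPM in wild type mice (1.96 ± 0.29, adjusted p = 0.0100). Rian was at 3.89, 2.65 and 3.79 CPM in the mice labelled knockout, against 0.657, 1.00 and 1.40 CPM in wild type mice (1.75 ± 0.29, adjusted p = 0.0103). In both genes every labelled knockout value exceeded every wild type value, and both calls were lost with all 12 libraries in the fit. These were the 3 called members of 19 imprinted genes tested, whose median log2 fold change was 0.15, and 1 was called without wild type mouse 2. Of 12 genes of the fetal liver list, 1 was called without labelled knockout mouse 1 or 3 and 0 without any single wild type mouse. With all 6 mice, 3 rose and 0 fell (25%, beside 3.81% of all genes tested). Beside H19 these were Ly6d and Prom1, both of low level, while Afp, the fetal counterpart of albumin, had 3.44, 2.06 and 4.45 CPM in the mice labelled knockout, against 2.79, 2.23 and 2.57 CPM in wild type mice, with overlapping groups (adjusted p = 0.490).

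Serpina1e (chr12:103946932-103956897) belongs to the mouse family of alpha-1 antitrypsin genes, which encode the plasma inhibitor of neutrophil elastase, and is the member known for higher levels in male liver. It lies in a tandem cluster with the near-identical copies Serpina1a to Serpina1d. Upstream sequences of Serpina1e and Serpina1a (RefSeq, GRCm38.p6, minus strand) are shown because the 2 copies behaved unlike each other while their promoters are nearly the same. The aligned stretch, chr12:103956905-103957147 for Serpina1e and chr12:103863570-103863812 for Serpina1a, lies upstream of the annotated start of Serpina1e and spans that of Serpina1a. Capitals mark the bases at which the 2 sequences differ.
Serpina1e: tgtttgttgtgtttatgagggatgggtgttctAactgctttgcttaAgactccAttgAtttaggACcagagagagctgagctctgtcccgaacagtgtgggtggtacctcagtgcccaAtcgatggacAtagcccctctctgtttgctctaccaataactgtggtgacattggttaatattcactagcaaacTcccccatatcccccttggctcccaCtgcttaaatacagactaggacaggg
Serpina1a: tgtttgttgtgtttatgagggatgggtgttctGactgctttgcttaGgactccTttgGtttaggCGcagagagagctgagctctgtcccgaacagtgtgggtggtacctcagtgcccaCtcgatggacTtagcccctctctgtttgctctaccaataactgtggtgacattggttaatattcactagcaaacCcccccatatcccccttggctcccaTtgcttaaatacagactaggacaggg
Over these 243 bases, 233 were identical (95.9%) and 10 differed, with no gap. The best local alignments of Serpina1e with Serpina1b, Serpina1c and Serpina1d were 97.6%, 95.2% and 96.6% identical.

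Serpina1e had 1208, 1470 and 1843 CPM in the mice labelled knockout, against 39.6, 47.7 and 43.2 CPM in wild type mice. No labelled knockout value came near the wild type range, and the mean was 34.6-fold higher (5.11 ± 0.17, adjusted p = 6.11e-07). The call held under all 14 alternatives. Serpina1a had 951, 948 and 1047 CPM in the mice labelled knockout, against 994, 883 and 989 CPM in wild type mice, with overlapping groups (0.04 ± 0.09, adjusted p = 0.864). Serpina1b, Serpina1c and Serpina1d were not called, with log2 fold changes of -0.15 ± 0.09, 0.34 ± 0.09 and -0.11 ± 0.09. The sources used here do not say how reads matching several copies were counted, so levels of single copies are uncertain. Serpina1e was the 1 called gene among 17 tested members of the Serpina cluster, with a median of 0.32. Serpina4-ps1 (6.55 ± 1.00, adjusted p = 0.0513) and the adipokine gene Serpina12 (2.81 ± 0.60, adjusted p = 0.0890), named after their values were seen, were not called though their groups did not overlap.

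**Figure D3:**
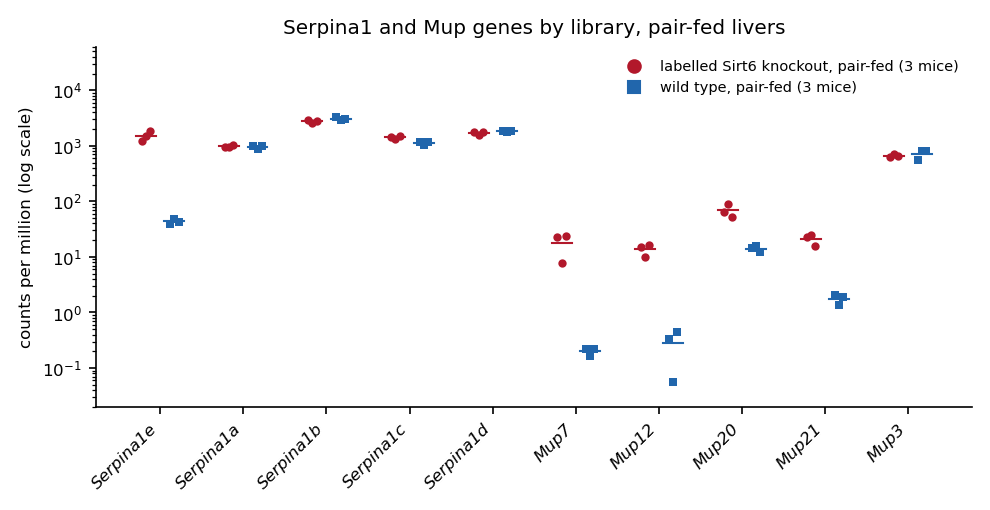
Points are the CPM of 5 Serpina1 copies and 5 Mup genes in each pair-fed library on a log axis, with labelled knockout mice as circles and wild type mice as squares to their right, and bars mark the means. Serpina1e stands apart from its 4 copies, and Mup7, Mup12, Mup20 and Mup21 do not overlap between the groups, whereas Mup3 does.

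Major urinary proteins are pheromone carriers secreted by hepatocytes and are made mostly by male mice. Of 10 Mup genes tested, 5 rose and 0 fell, with a median log2 fold change of 4.23. Mup20, which encodes the male pheromone darcin, had 65.7, 91.0 and 53.1 CPM in the mice labelled knockout, against 14.5, 15.6 and 12 CPM in wild type mice (2.32 ± 0.21, adjusted p = 0.00289). Mup21 had 22.4, 25.0 and 16.0 CPM in the mice labelled knockout, against 2.03, 1.34 and 1.90 CPM in wild type mice (3.58 ± 0.21, adjusted p = 2.07e-05). Neither gene overlapped between the groups, and both calls held under all 14 alternatives. Mup7 was at 22.8, 7.63 and 23.6 CPM in the mice labelled knockout and at no more than 0.224 CPM in any wild type mouse (6.42 ± 0.75, adjusted p = 0.0140). Its call was lost with limma-voom (adjusted p = 0.147) and without any single wild type mouse. Mup12 and Mup1 rose by 5.60 ± 0.39 and 4.87 ± 0.72. Mup3, the copy with the most reads, was at 619, 709 and 646 CPM in the mice labelled knockout, against 549, 811 and 815 CPM in wild type mice, and the groups overlapped (adjusted p = 0.665). The Mup copies share most of their sequence, so their single values are uncertain in the same way.

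Of 15 genes known to be higher in male than in female mouse liver, 7 rose and 1 fell, where 3.81% of all genes were called, and the median log2 fold change was 1.30. Over the alternatives 4 to 11 members were called, with 4, 5 and 5 without wild type mouse 1, 2 or 3. Xist, the X-inactivation RNA expressed in females and named after its values were seen, had 523, 319.5 and 414 CPM in the mice labelled knockout, against 585, 561 and 547 CPM in wild type mice. It was high in all 6 libraries and lower in the mice labelled knockout without overlap, but was not called (-0.43 ± 0.16, adjusted p = 0.172). The members of the male-biased list higher in the mice labelled knockout were Serpina1e, Mup7, Mup20, Mup21, Cyp2d9, Hsd3b5 and Nudt7. Cyp2d9 (chr15:82452377-82456827), a steroid hydroxylase of male liver, had 773, 808 and 641 CPM in the mice labelled knockout, against 61.0, 111 and 42.8 CPM in wild type mice. All 3 labelled knockout values lay above the wild type range, with a 10.3-fold higher mean (3.37 ± 0.40, adjusted p = 0.0188). That call was lost without labelled knockout mouse 1, 2 or 3 or wild type mouse 1, with adjusted p up to 0.0898. Hsd3b5, a male-specific steroid dehydrogenase, had 1.05, 3.35 and 5.96 CPM in the mice labelled knockout and at most 0.279 CPM in any wild type mouse (4.04 ± 0.78, adjusted p = 0.0374, and up to 0.15 in the alternatives). Slco1a1, a male-biased transporter of organic anions and bile acids, was not called and varied widely. It had 387, 95.3 and 884 CPM in the mice labelled knockout, against 13.2, 15.2 and 3.97 CPM in wild type mice (5.40 ± 1.15, adjusted p = 0.0995). Even its lowest labelled knockout value lay above the wild type range.

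The member of that list that fell was Bcl6, a male-biased repressor that restrains female-biased genes. It had 7.33, 6.76 and 6.90 CPM in the mice labelled knockout, against 23.5, 13.2 and 18.2 CPM in wild type mice. The groups did not overlap, and the fall of -1.39 ± 0.19 (adjusted p = 0.00708) held under all 14 alternatives. In ethanol-fed mice the log2 fold change of Bcl6 was 0.11 ± 0.28 (adjusted p = 0.934). Its difference between the feeding conditions was not called (adjusted p = 0.655). Cux2, the activator of female-biased genes, and Stat5b overlapped between the groups, with log2 fold changes of -0.19 ± 0.30 and 0.14 ± 0.08. Socs2, a STAT5 target that dampens growth hormone signalling, had 32.4, 42.0 and 54.1 CPM in the mice labelled knockout, against 20.7, 22.3 and 21.4 CPM in wild type mice (1.00 ± 0.17, adjusted p = 0.0161). Its labelled knockout values all exceeded the narrow wild type range, and the call was lost under 5 alternatives, with adjusted p up to 0.418. In ethanol-fed mice the log2 fold change of Socs2 was -0.21 ± 0.42 (adjusted p = 0.910). Its difference between the feeding conditions was not called either (adjusted p = 0.936). Of 18 genes higher in female liver, 2 rose and 0 fell, with a median of 0.22. Trim24, a chromatin reader and cofactor of nuclear receptors, had 258, 248 and 209 CPM in the mice labelled knockout, against 110, 95.3 and 91.7 CPM in wild type mice (1.27 ± 0.10, adjusted p = 0.000136). Cyp2a4, a steroid hydroxylase whose reads may be shared with Cyp2a5, averaged 2451 ± 194 CPM in the mice labelled knockout and 1470 ± 330 CPM in wild type mice (SD, n = 3 each; adjusted p = 0.0325, and up to 0.163 in the alternatives).

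**Figure D4:**
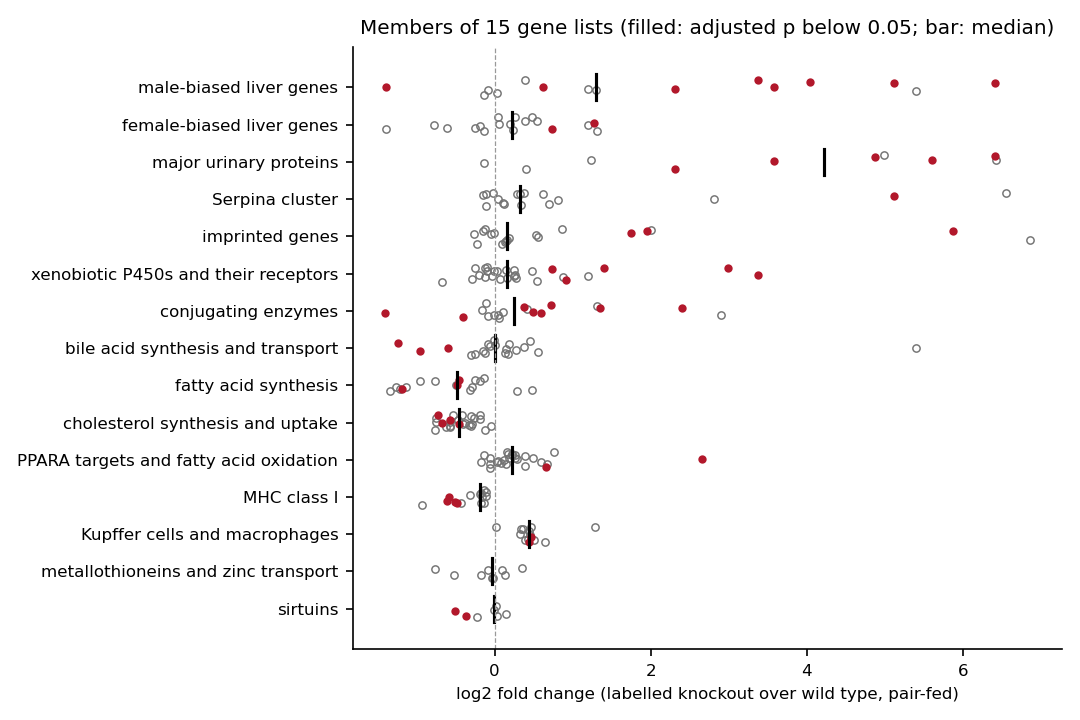
Each point is a tested member of 1 of 15 gene lists, placed by its log2 fold change, labelled knockout over wild type. Filled points passed the test and black bars are the list medians. Members of the male-biased list and the Mup genes reach beyond 6, all 25 cholesterol genes lie below 0, and all 14 Kupffer cell markers lie above 0.

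In the list of xenobiotic P450s with their nuclear receptors, 5 of 27 genes rose, none fell, and the median was 0.16. The count was 3 without any single labelled knockout mouse and 2 without wild type mouse 1. Cyp2b10 (chr7:25897658-25926624), the classical target of the constitutive androstane receptor, had 76.0, 51.4 and 58.4 CPM in the mice labelled knockout, against 8.22, 7.80 and 7.27 CPM in wild type mice. The lowest labelled knockout value was several times the highest wild type value, with a 7.97-fold higher mean (2.99 ± 0.15, adjusted p = 9.77e-06). Cyp3a11, a main drug-metabolising P450 of mouse liver, had 3470, 3108 and 3345 CPM in the mice labelled knockout, against 1418, 1881 and 1961 CPM in wild type mice (0.92 ± 0.12, adjusted p = 0.00355). Its neighbour Cyp3a59 rose by 1.40 ± 0.19, and Cyp2d9 and Cyp2a4, described above, complete the 5. The calls of Cyp2b10 and Cyp3a11 held under all 14 alternatives, whereas that of Cyp3a59 was lost without wild type mouse 1 (adjusted p = 0.0607). Nr1i3, the receptor upstream of Cyp2b10, had 271, 198 and 228 CPM in the mice labelled knockout, against 282, 219 and 257 CPM in wild type mice, with overlapping groups (adjusted p = 0.672). Outside the list, Cyp2c67 was at 261, 275 and 275 CPM in the mice labelled knockout, against 85.0, 98.0 and 93.3 CPM in wild type mice (1.55 ± 0.08, adjusted p = 6.42e-06). Reads of Cyp2c and Cyp3a copies may be shared as well.

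Of 18 sulfotransferases, glucuronosyltransferases and related conjugating enzymes, 6 rose and 2 fell, with a median of 0.24. The count of 8 was 5 without labelled knockout mouse 3 and 4 with all 12 libraries in the fit. Sult5a1 and Ugt2b5 were among those lost with all 12 libraries. Sult5a1, a sulfotransferase, had 24.8, 17.8 and 23.7 CPM in the mice labelled knockout, against 3.67, 3.01 and 5.87 CPM in wild type mice (2.40 ± 0.23, adjusted p = 0.00148). The glucuronosyltransferase genes Ugt2b35, Ugt2b5, Ugt2b1 and Ugt2b36, neighbours on chromosome 5, rose by 0.72 ± 0.09, 0.59 ± 0.10, 0.50 ± 0.09 and 0.38 ± 0.08. Ugt1a genes share their last exons and are uncertain as single genes. Within them Ugt1a9 rose by 1.35 ± 0.18, while Ugt1a5 was at 48.0, 36.2 and 40.8 CPM in the mice labelled knockout, against 133, 104 and 93.5 CPM in wild type mice (-1.40 ± 0.15, adjusted p = 0.00212). Ugt1a1, which conjugates bilirubin, fell by 0.41 on the log2 scale (adjusted p = 0.0485). The groups did not overlap in any of these 8 genes. The calls of Ugt2b35 and Ugt1a5 held under all 14 alternatives. Those of Ugt2b1, Ugt2b36, Ugt1a9 and Ugt1a1 were not followed singly.

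Genes of bile acid synthesis and transport gave 0 higher and 3 lower members of 20 tested (15%, beside 3.81% of all genes tested), and their median was 0.00. Cyp8b1, the sterol hydroxylase that directs synthesis towards cholic acid, had 69.6, 77.2 and 66.7 CPM in the mice labelled knockout, against 145, 189 and 168 CPM in wild type mice (-1.23 ± 0.11, adjusted p = 0.000162). Baat, which conjugates bile acids with taurine and glycine, had 166, 107 and 130 CPM in the mice labelled knockout, against 237, 272 and 276 CPM in wild type mice (-0.96 ± 0.15, adjusted p = 0.0107). Slc10a1, the sodium-dependent uptake transporter NTCP, averaged 743 ± 125 CPM in the mice labelled knockout and 1128 ± 155 CPM in wild type mice (SD, n = 3 each; adjusted p = 0.0418). In these 3 genes the groups did not overlap. Cyp7a1, the rate-limiting enzyme of the pathway, had 252, 267 and 194 CPM in the mice labelled knockout, against 281, 199 and 235 CPM in wild type mice, with groups that overlapped fully (adjusted p = 0.994). The call of Cyp8b1 was lost with all 12 libraries in the fit (adjusted p = 0.113), that of Baat without labelled knockout mouse 3 (adjusted p = 0.0503), and that of Slc10a1 under 6 alternatives, with adjusted p up to 0.396.

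Lipid synthesis genes, which SIRT6 is known to repress, were not higher. Of 17 fatty acid synthesis genes 0 rose and 3 fell, with a median of -0.48 and 15 negative values. Acly, which makes cytosolic acetyl-CoA, had 321, 236 and 262 CPM in the mice labelled knockout, against 649, 769 and 444 CPM in wild type mice (-1.18 ± 0.21, adjusted p = 0.0283). Elovl5, an elongase of polyunsaturated fatty acids, had 293, 315 and 299 CPM in the mice labelled knockout, against 415, 446 and 410 CPM in wild type mice (-0.48 ± 0.08, adjusted p = 0.0103), and the acyltransferase gene Gpam fell by 0.46 on the log2 scale. Each of these had lower values in every mouse labelled knockout than in any wild type mouse. Fasn, the fatty acid synthase, was not called, with 981, 549 and 728 CPM in the mice labelled knockout, against 2053, 2111 and 1082 CPM in wild type mice (-1.22 ± 0.34, adjusted p = 0.133). Wild type mouse 3 was the lowest wild type mouse for Acly and Fasn, and without it 8 members of this list were called. Without labelled knockout mouse 2 the count was 1, and without labelled knockout mouse 3, and in the fit of all 12 libraries, it was 0.

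Cholesterol synthesis and uptake showed the same side of 0 for every member. Of 25 genes tested 0 rose, 4 fell and all 25 had negative log2 fold changes, with a median of -0.45. Called members included Insig1, a sterol-responsive brake on SREBP processing, Hmgcs1, the cytosolic HMG-CoA synthase, and Mvk, mevalonate kinase. Hmgcs1 had 230, 215 and 263 CPM in the mice labelled knockout, against 403, 456 and 312 CPM in wild type mice (-0.73 ± 0.14, adjusted p = 0.0219). Insig1 had 244, 215 and 225 CPM in the mice labelled knockout, against 383, 314 and 315 CPM in wild type mice (-0.57 ± 0.10, adjusted p = 0.0130). No value overlapped between the groups in either gene. Mvk fell by 0.68 on the log2 scale (adjusted p = 0.0365). As in the fatty acid list, wild type mouse 3 was the lowest wild type mouse for Hmgcs1 and Mvk, and 17 members were called without it, whereas 2, 0 and 1 were called without labelled knockout mouse 1, 2 or 3, and 1 and 2 without wild type mouse 1 or 2. In the fit of all 12 libraries 0 were called.

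The promoter of Hmgcs1 (RefSeq, GRCm38.p6, chr13:119690101-119690400, plus strand) is shown because it holds, in capitals, the sterol regulatory element letters TCACCCCAC, the site known to bind SREBP proteins.
Hmgcs1: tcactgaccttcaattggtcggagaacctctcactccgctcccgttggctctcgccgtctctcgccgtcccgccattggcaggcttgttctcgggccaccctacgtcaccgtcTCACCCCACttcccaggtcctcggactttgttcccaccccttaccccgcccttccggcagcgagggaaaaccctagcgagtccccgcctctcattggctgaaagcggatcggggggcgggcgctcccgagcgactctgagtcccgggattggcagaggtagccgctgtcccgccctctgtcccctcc
Of 9674 tested genes with a promoter in the RefSeq table (250 bases before to 50 after the start), 0.569% held these letters on either strand, as did 3 of 203 promoters of called higher genes (1.48%) and 3 of 170 of called lower genes (1.76%). Among 17 cholesterol genes with a promoter in the table, Hmgcs1 was the 1 with a match. The STAT5 letters TTCNNNGAA were found in 7.12% of all promoters, 5.91% of those of called higher genes and 8.24% of those of called lower genes, and in 1 of 12 promoters of male-biased genes. E-box letters CACGTG stood in 10.3% of all promoters, in 8.87% for called higher genes and in 11.8% for called lower genes.

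The list of PPARA targets and fatty acid oxidation genes gave 2 higher and 0 lower members of 27 tested, with a median of 0.22. Its share called was 7.41%, beside 3.81% of all genes tested. Cyp4a31, an omega-hydroxylase of a family with near-identical copies, had 104, 157 and 105 CPM in the mice labelled knockout, against 10.0, 19.3 and 28.5 CPM in wild type mice (2.66 ± 0.43, adjusted p = 0.0487). Slc27a1, a fatty acid transporter, had 30.4, 32.6 and 25.7 CPM in the mice labelled knockout, against 17.7, 15.7 and 23 CPM in wild type mice (0.65 ± 0.15, adjusted p = 0.0392). Both genes kept the groups apart, but neither call held without labelled knockout mouse 1 or 2 or wild type mouse 2. Ppara overlapped between the groups (-0.06 ± 0.08, adjusted p = 0.749).

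Glycolysis genes on the list of SIRT6 targets gave 1 higher and 1 lower member of 18 (11.1%, beside 3.81% of all genes tested), with a median of 0.05. Pfkm, the muscle-type phosphofructokinase, had 29.0, 30.0 and 26.3 CPM in the mice labelled knockout, against 21.8, 18.6 and 19.2 CPM in wild type mice (0.52 ± 0.10, adjusted p = 0.0162). Pdk1, a kinase that inhibits pyruvate dehydrogenase, had 178, 149 and 164 CPM in the mice labelled knockout, against 231, 267 and 233 CPM in wild type mice (-0.58 ± 0.10, adjusted p = 0.0101). In neither gene did the groups overlap. The lactate dehydrogenase gene Ldha had overlapping groups (0.04 ± 0.13, adjusted p = 0.900). Slc2a2, the hepatocyte glucose transporter, had 472, 400 and 434 CPM in the mice labelled knockout, against 563, 633 and 551 CPM in wild type mice (-0.42 ± 0.10, adjusted p = 0.0391), and was the 1 called member of 15 genes of hepatic glucose production and storage. Of the 7 sirtuin genes, Sirt7 and Sirt5 fell. Sirt7 had 28.8, 28.1 and 27.8 CPM in the mice labelled knockout, against 35.8, 37.4 and 36.3 CPM in wild type mice (-0.37 ± 0.08, adjusted p = 0.0253). Sirt5 averaged 9.94 ± 1.13 CPM in the mice labelled knockout and 14.2 ± 0.753 CPM in wild type mice (SD, n = 3 each; adjusted p = 0.0383). Of these 5 called genes, each was lost in at least 1 alternative, and all 5 with all 12 libraries in the fit.

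Antigen presentation genes gave 0 higher and 4 lower members of 15 MHC class I genes tested, all 15 with negative log2 fold changes and a median of -0.19. H2-Q10, a soluble class I molecule secreted by liver, had 939, 1048 and 1029 CPM in the mice labelled knockout, against 1443, 1393 and 1438 CPM in wild type mice (-0.50 ± 0.09, adjusted p = 0.0109). Tap2, a subunit of the peptide transporter, had 24.1, 25.6 and 22.9 CPM in the mice labelled knockout, against 41.0, 36.7 and 33.1 CPM in wild type mice (-0.61 ± 0.10, adjusted p = 0.00912). The groups stayed apart in both. Tapbp, the loading chaperone tapasin, and Psmb8, an immunoproteasome subunit, fell by 0.48 and 0.59 on the log2 scale. With all 12 libraries in the fit 0 of these were called, and 2 without labelled knockout mouse 2 or 3 or wild type mouse 1. Of 27 interferon-stimulated genes 2 fell, Ifi44 (-1.08 ± 0.22, adjusted p = 0.0253) and Ifih1 (-0.49 ± 0.12, adjusted p = 0.0419), and 0 rose. The shares called were 26.7% of the MHC class I list and 7.41% of the interferon list, beside 3.81% of all genes tested. Ifi44 was lost under 5 alternatives, with adjusted p up to 0.529, and Ifih1 under 6, with adjusted p up to 0.167, in each case also without several single mice.

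Of 14 markers of Kupffer cells, the resident macrophages of liver, 2 passed the test. All 14 had positive log2 fold changes, with a median of 0.44, whereas the median of the same list in ethanol-fed mice was -0.49, with 0 called. In pair-fed mice their summed level ranged from 825 to 1044 CPM in the mice labelled knockout and from 578 to 803 CPM in wild type mice. Slc40a1, the iron exporter ferroportin, and the complement receptor gene Vsig4 were the 2 called members, with log2 fold changes of 0.44 ± 0.10 (adjusted p = 0.0391) and 0.47 ± 0.11 (adjusted p = 0.0492). Both calls were lost with all 12 libraries in the fit and without each of 5 of the 6 mice in turn, the exception being labelled knockout mouse 1. Summed MHC class II and dendritic cell markers ranged from 199.7 to 209 CPM in the mice labelled knockout and from 126 to 197 CPM in wild type mice, with 0 of 11 called. The gaps in these and the Kupffer cell sums were narrow. Whether they stay with TMM factors, which ran from 0.988 to 1.01, was not tested. Of 12 markers of pancreatic acinar cells, 2 were in the table. Their sum ranged from 9.30 to 18.2 CPM in the mice labelled knockout and from 6.52 to 8.84 CPM in wild type mice. Nearly all of it was Cela1, which averaged 12.7 CPM in the mice labelled knockout and 6.92 CPM in wild type mice. Cela1 was not called (0.87 ± 0.27, adjusted p = 0.128). Cela2a, of low level, had overlapping groups and was not called either (-0.06 ± 0.39, adjusted p = 0.961). Sums for sinusoidal endothelium, stellate cells, T and NK cells, cholangiocytes and hepatocyte identity overlapped between the groups. The part that these other cells play in the gene results above was not tested.

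Several of the larger falls were in genes of low level. Fbf1, a component of the transition fibres of cilia, had 5.83, 4.60 and 5.51 CPM in the mice labelled knockout, against 19.1, 21.8 and 23.1 CPM in wild type mice (-2 ± 0.13, adjusted p = 2.04e-05). Srgap3, a GTPase-activating protein, had 0.611, 1.03 and 1.06 CPM in the mice labelled knockout, against 4.16, 5.63 and 5.54 CPM in wild type mice (-2.50 ± 0.25, adjusted p = 0.000642). Snhg11, a small nucleolar RNA host gene, had 0.167, 0.270 and 0.223 CPM in the mice labelled knockout, against 4.71, 2.95 and 2.12 CPM in wild type mice (-3.85 ± 0.42, adjusted p = 0.00103). Their groups did not overlap. The organic cation transporter gene Slc22a3 fell by 1.71 ± 0.22 and Nrp2, a co-receptor for semaphorins and VEGF, by 1.63 ± 0.25 on the log2 scale. Slc2a4, the insulin-responsive glucose transporter of muscle and fat, had 0.777, 0.811 and 0.612 CPM in the mice labelled knockout, against 3.4, 4.9 and 1.4 CPM in wild type mice (-2.13 ± 0.45, adjusted p = 0.0348). That call was lost under 7 of 14 alternatives, and that of Fbf1 with all 12 libraries in the fit (adjusted p = 0.113). The call of Nrp2 was lost without labelled knockout mouse 1 or 2 or wild type mouse 2, with adjusted p up to 0.102. That of Slc22a3 held under all 14 alternatives.

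Of the 59 gene lists, 35 held at least 1 called member and 24 held none. Lists with 0 called members included those of antioxidant enzymes (18 tested), metallothioneins and zinc transport (9), alcohol metabolism (11), ER stress (21), immediate early genes (15), cell cycle (19), matrix and fibrosis (22), respiratory chain (28) and cytosolic ribosomal proteins (35). With 3.81% of all genes called, 0 calls says little about lists of this size. Values were positive for 17 of 19 cell cycle genes (median 0.32) and for 9 of 18 antioxidant genes (median 0.01). Single members were called in 3 further lists, where 3.81% of all genes were called. In the p53 list (18 tested) Bax, a promoter of apoptosis, rose by 0.53 ± 0.09. In the heat shock list (11 tested) Bag3, an HSP70 cochaperone, fell by 0.55 on the log2 scale. In the urea cycle list (10 tested) Asl, argininosuccinate lyase, fell by 0.58. Tbx3, a regulator of pericentral hepatocytes, fell by 0.60 and was the 1 called member of 19 pericentral genes. The calls of Bax, Bag3, Asl and Tbx3 were all lost with all 12 libraries in the fit, and that of Bax also without labelled knockout mouse 2. In ethanol-fed mice their log2 fold changes were 0.46, 0.09, 0.07 and 0.48, with none called.

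Called genes were spread over the genome. Shares per chromosome ran from 2.73% on chromosome 10, which carries Sirt6, to 5.36% on the X chromosome, leaving aside the single Y gene tested. Within 5 Mb on either side of Sirt6, 4 of 148 genes were called (2.7%), and within 20 Mb 7 of 283 (2.47%). In windows of 10 Mb with at least 20 tested genes, the highest share was 22.9% (8 of 35), on chromosome 4 between 60000001 and 70000000, where 5 Mup genes lie. Next was a window on chromosome 5 between 80000001 and 90000000 with 21.7% (5 of 23), where 4 Ugt2b genes rose and the sulfotransferase gene Sult1b1 fell.

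The same label was compared in the ethanol-fed mice, in 6 other libraries that share no mouse with those above. There, 47 of 12694 genes were called (0.37%), and 7.87% had an unadjusted p under 0.05, with a biological coefficient of variation of 0.248 in ethanol-fed against 0.115 in pair-fed groups. Of the 481 genes called in pair-fed mice, 468 were tested in ethanol-fed mice and 405 had the same sign (86.5%), beside 61.2% of all genes tested in both. Higher genes kept their sign in 229 of 260 cases and lower genes in 176 of 208. Of the pair-fed calls, 183 (39.1%) had an unadjusted p under 0.05 in the same direction in ethanol-fed mice. Calls in both feeding conditions numbered 31, which is 6.44% of the pair-fed and 66.0% of the ethanol-fed calls, and all 31 had the same direction. Nrp2 was the 1 shared gene that was lower (-2.35 ± 0.19 in ethanol-fed mice, adjusted p = 0.000981).

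Among the 30 shared higher genes, Adgrv1 had a log2 fold change of 5.96 ± 0.39 in ethanol-fed mice, H19 of 6.80 ± 0.51, Apba2 of 6.82 ± 0.49, Cyp2d9 of 3.72 ± 0.26, Mup20 of 2.24 ± 0.22 and Trim24 of 1.20 ± 0.18. Igf2, short of the threshold in pair-fed mice, was called there (4.86 ± 0.33, adjusted p = 0.000497). Serpina1e was not (3.96 ± 0.93, adjusted p = 0.222). Of the named lipid genes that fell in pair-fed mice, Acly, Elovl5, Gpam, Insig1 and Hmgcs1 had ethanol-fed log2 fold changes between -0.12 and 0.06, and Mvk had -0.64 ± 0.25, where its pair-fed value was -0.68 ± 0.15. None of the 6 was called in ethanol-fed mice. A test of the difference between the feeding conditions, the interaction of label and feeding, called 1 of 13097 genes (0.00764%). That gene was Cyp2b10, with 1277, 967 and 1003 CPM in ethanol-fed mice labelled knockout, against 1185, 1311 and 1541 CPM in ethanol-fed wild type mice. These groups overlapped, unlike those of pair-fed mice, and the log2 fold change was -0.31 ± 0.19 (adjusted p = 0.710). The interaction of Acly had an adjusted p of 0.936.

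**Figure D5:**
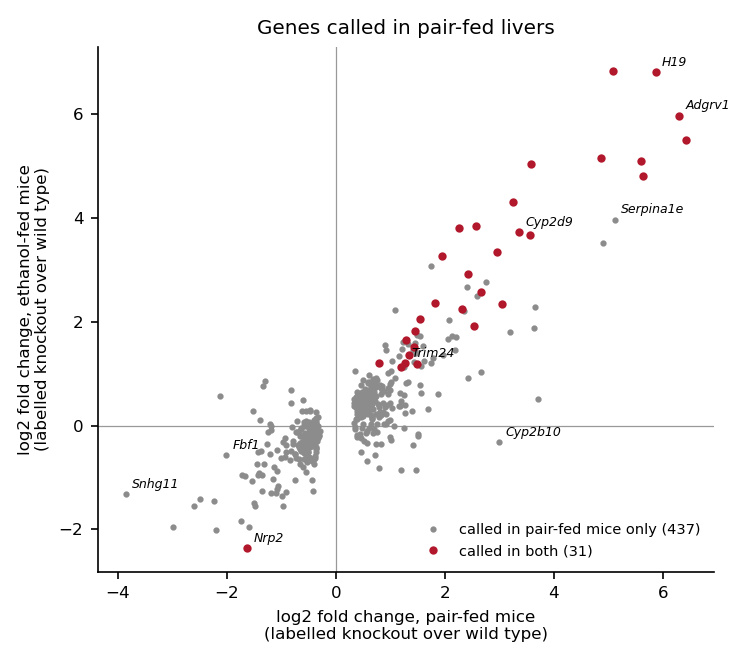
Each point is 1 of the 468 genes called in pair-fed mice and tested in ethanol-fed mice, with its log2 fold change, labelled knockout over wild type, in pair-fed mice on the x axis and the same in ethanol-fed mice on the y axis. Filled points are the 31 genes called in both. Adgrv1 lies at 6.30 and 5.96 on the x and y axes, and Cyp2b10 at 2.99 and -0.31.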

How the data were processed

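The 6 pair-fed livers are a subset of 12 profiled by RNA-seq, with Trizol extraction and TruSeq libraries per the labels' protocols. Per the submitters' processing notes, the tools were STAR 2.5, Subread 1.5.3 (featureCounts) and edgeR 3.20.8, on the build mm10. Annotation, strand setting and treatment of multiply matching reads are not stated there. The authors deposited whole-number read counts per gene, which are not normalised. Their deposited fold changes were not used. Some results are not reported here.

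Counts were scaled with TMM, filtered with filterByExpr and tested in R 4.3.3 by edgeR 4.0.16 (robust quasi-likelihood, 4 residual degrees of freedom), using only the groups compared, because the ethanol-fed groups spread more. The interaction was fitted on all 12 libraries. A standard error is the size of the log2 fold change divided by the root of its F, and means ± SD are of TMM-normalised CPM. Alternatives used limma 3.58.1 and DESeq2 1.42.0. The gene procedure was also run on counts simulated with the spread fitted to the pair-fed libraries. Such a run cannot show whether the model behind it holds for these data. Library pairs within a group differed by more than sampling noise, with chi-square values of 12.6 to 26.1 per degree of freedom. The series' design text states that each library came from an individual mouse.

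The members, the 59 gene lists (908 of 1022 genes tested) and the tests were chosen with earlier results of these data known, so the lists are described and not tested as sets. Named genes are the 12 largest called rises and falls with a mean of at least 1 CPM, from each list up to 4 called genes (where none was called, 2 by lowest p), the 6 with the smallest p and up to 12 called in both feeding conditions. Others named were chosen after their values were seen, among them Igf2, Slco1a1, Nudt7, Ugt2b1, Ugt2b36, Ugt1a9, Ugt1a1, Sult1b1, Serpina1a to Serpina1d, Mup3, Serpina4-ps1, Serpina12, Fasn, Afp, Cux2, Stat5b, Nr1i3, Cyp7a1, Ppara and Ldha. Promoters come from RefSeq (GRCm38.p6), matched by symbol, and were aligned with Biopython 1.88. Depth is known from the total counts, and PCR reads carry no molecular identifiers.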

Additional observations from a re-analysis of the deposited data

Results flagged for a closer look

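Cyp2b10 was the 1 gene whose difference between the genotype labels itself differed between feeding conditions. The interaction, ethanol-fed minus pair-fed, was -3.30 ± 0.25 on the log2 scale (edgeR's quasi-likelihood test, adjusted p = 7.44e-05, 3 mice per group). In pair-fed mice it averaged 61.9 ± 12.6 CPM in mice labelled knockout and 7.76 ± 0.476 CPM in wild type mice, and in ethanol-fed mice 1082 ± 170 CPM in mice labelled knockout and 1345 ± 180 CPM in wild type mice (SD, n = 3 each). The levels of the pair-fed groups did not overlap, and those of the ethanol-fed groups did. At an unadjusted p under 0.05 the interaction held 696 of 13097 genes. A share near 0.05 would pass that threshold with no true difference. DESeq2 called 15 genes at an adjusted p below 0.05.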

How the results depend on the processing

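No fold change of Sirt6 or of the 92 named and called genes changed sign under the 14 alternatives, and 26 of the 92 kept their call in all of them. A further 14 lost it with all 12 libraries in the fit and in no other alternative, and 52 lost it without at least 1 mouse. The count of 481 called genes was 487 with median-of-ratios factors, 496 with total counts, 467 with a filter of 1 CPM in 3 libraries, 490 with no filter, 711 with DESeq2 and 451 with limma-voom. It was 114 with all 12 libraries, and 200 to 556 without 1 mouse at a time. Higher genes made up 55.3% of the calls, against 80.7% with all 12 libraries. The 47 ethanol-fed calls became 31 with total counts, 187 with DESeq2, 148 with all 12 libraries and 22 to 125 without 1 mouse at a time. They were 23, 22 and 23 without labelled knockout mouse 2 or 3 or wild type mouse 2, and 125 without wild type mouse 1. The 1 interaction call became 15 with DESeq2 and stayed 1 with total counts. Why these counts differ was not tested.

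Same-numbered mice did not deviate together over all genes (correlations of -0.03, -0.04 and 0.01). This gave no sign that the numbers pair the mice, but it cannot exclude a pairing that touches fewer genes. With the replicate number as a block, 564 genes were called in pair-fed mice (419 of the 481 among them), 35 in ethanol-fed mice and 1 in the interaction, and Sirt6 had a log2 fold change of -0.21.

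With 3 mice per group, many small changes and many changes in genes of a few counts per library can be missed here.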
